A study of Mus musculus with 9 samples.

Results

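The Toll-like receptor genes described here are the rows of the count matrix for Tlr1, Tlr2, Tlr3, Tlr4, Tlr5, Tlr6, Tlr7, Tlr8, Tlr9 and Tlr13, which make 10 of the 22851 genes listed. They were read in the myocardium of male mice, labelled C57BL/6 and given as C57BL/6J in the study's methods, in 9 RNA-seq libraries, 3 in each of 3 groups. The control check group (CK) received citrate buffer. The diabetic cardiomyopathy group (DCM) received 1 injection of streptozotocin, a toxin of insulin-producing cells that gives a model of type 1 diabetes, and was kept for 12 weeks. The spermine group (SPM) received the same streptozotocin and spermine, a small polyamine, at 1 mg/kg daily for 2 weeks before it and every other day for the 12 weeks after it. The mice were 6 to 8 weeks old at the start. No group received spermine without streptozotocin, so SPM could be compared only with diabetic hearts and with hearts that had neither treatment. One passage of the study's methods gives RNA from 3 mice per group and another gives pools of 6 hearts, and p-values here measure the spread between the libraries as labelled.

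Toll-like receptors are membrane proteins of innate immunity whose leucine-rich outer part binds microbial molecules or the debris of damaged cells, and whose inner part recruits adaptor proteins that lead to NF-kappaB and interferon regulatory factors. Tlr1, Tlr2, Tlr4, Tlr5 and Tlr6 act at the cell surface, where they bind lipoproteins, lipopolysaccharide and flagellin. Tlr3, Tlr7, Tlr8, Tlr9 and Tlr13 act in endosomes, where they bind nucleic acids. In the heart the family is known from macrophages and other leukocytes, and in part from endothelial cells, fibroblasts and myocytes.

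Total counts lay between 29901300 and 39718680 per library. The extraction protocol in the labels speaks of retinas while the tissue label is heart, so both were checked. The 5 cardiomyocyte markers measured summed to between 31200 and 43120 CPM (counts scaled by library size) and the 6 retina markers to between 0.422 and 1.67 CPM. The second SPM library stood apart from the rest. Of the 2656 genes without a count in the other 2 SPM libraries, 30 (1.13%) had a count in it, against 15.6% to 35.0% when any other library was set against its 2 group partners. Among genes with at least 20 counts it lay between its 2 partners for 66.7%, against 15.5% to 40.5% for the other libraries. It may therefore not be an independent replicate, and the calls of the receptors in SPM are given with and without it. Fold changes of SPM compared to DCM also ran with the GC content of the genes. The Spearman correlation was -0.502 across 14484 genes of the same 6 libraries, which is a description. The same value was 0.0602 for DCM compared to CK and -0.366 for SPM compared to CK.

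The members lie on 7 chromosomes of GRCm38 as annotated by GENCODE M21. Tlr1 (chr5:64924679-64933563) and Tlr6 (chr5:64952031-64960097) are neighbours on the minus strand of chromosome 5, Tlr8 (chrX:167242696-167264329) and Tlr7 (chrX:167304929-167330558) are neighbours on the minus strand of chromosome X, and Tlr13 (chrX:106143204-106160493) lies elsewhere on X. Tlr2 is at chr3:83836272-83841767, Tlr4 at chr4:66827584-66930284, Tlr3 at chr8:45395665-45411080, Tlr9 at chr9:106222598-106226883 and Tlr5 at chr1:182954788-182976044. Exons of Tlr3 share 381 bases with an antisense gene, Gm45542, and the strand setting of the counts is not given in the sources used here.

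Tlr1 and Tlr6 each pair with Tlr2 to bind lipoproteins, and their transcripts are nearly the same over part of the coding sequence, so reads from there could have been counted for either. Over a stretch of 792 bases they differed at 7 positions, an identity of 99.1%, and the longest identical run was 229 bases. The place where this stretch begins is shown for both, 120 coding bases each from GRCm38, minus strand, with the bases that differ between them in capitals. The first 60 bases differ at 28 positions and the last 60 at 1.
Tlr1, chr5:64925880-64925999: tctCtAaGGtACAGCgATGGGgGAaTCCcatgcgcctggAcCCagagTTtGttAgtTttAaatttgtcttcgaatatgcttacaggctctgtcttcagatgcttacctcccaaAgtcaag
Tlr6, chr5:64954171-64954290: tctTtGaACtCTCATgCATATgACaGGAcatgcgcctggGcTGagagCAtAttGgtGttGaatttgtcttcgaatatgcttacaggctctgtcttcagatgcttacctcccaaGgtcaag
In all, 454 windows of 50 bases were shared by the pair, which is 15.3% of the windows of the Tlr1 transcript. The split of counts between these 2 genes is therefore uncertain. The size of that uncertainty was not estimated, since no source used here gives the counting tool.

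Fold changes were fitted with edgeR on all genes, and a gene was called when its Benjamini-Hochberg adjusted p was below 0.05 and its fold change at least 1.5. In DCM compared to CK, Tlr2 was downregulated and no other receptor was called, so 1 of 10 was called, beside 2.31% of the 14402 genes tested that were called lower and 4.34% in either direction. Tlr13, Tlr7, Tlr1 and Tlr2 were upregulated in SPM compared to DCM, which is 4 of 10, beside 2.7% of 14493 genes called in that direction and 3.59% in either. Tlr13 and Tlr7 were also upregulated in SPM compared to CK, which is 2 of 10, beside 5.08% of 14574 genes called in that direction and 9.21% in either. Without the second SPM library no receptor was called by edgeR in SPM compared to DCM, where 5 had an unadjusted p below 0.05 and 0.283% of all genes were called higher. In the same setting 1, Tlr7, was called in SPM compared to CK, where 2.9% of all genes were called higher. The comparisons share libraries in pairs, so they are not independent of each other.

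**Figure D1:**
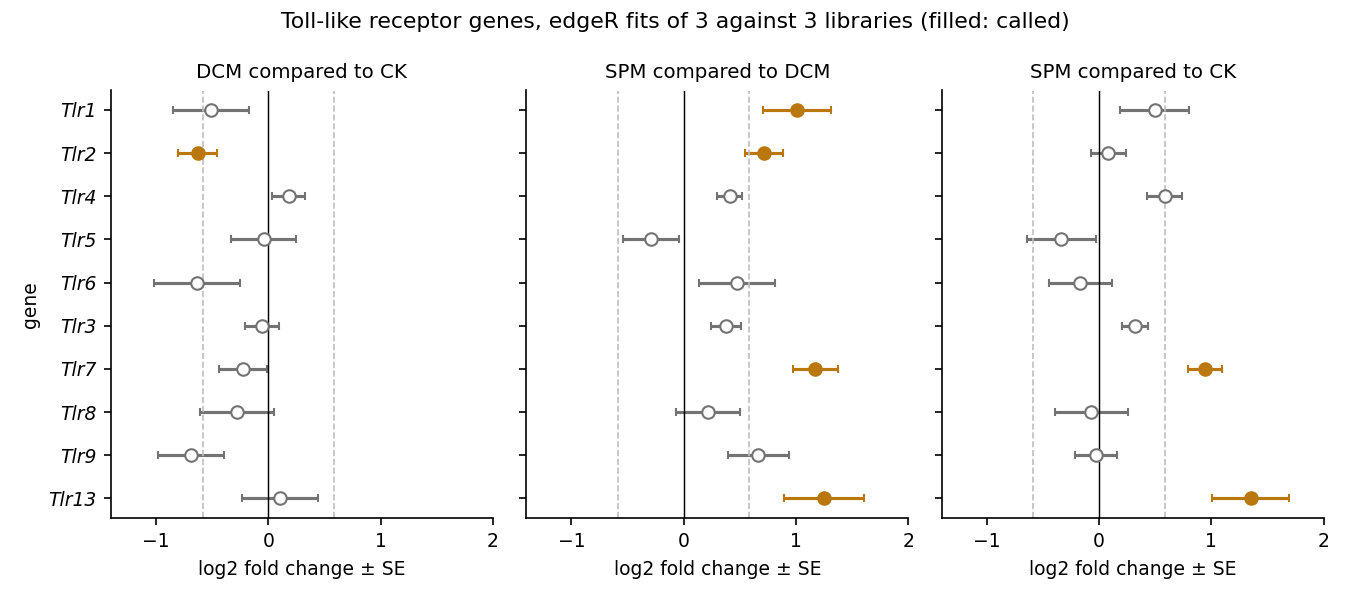
Log2 fold change (horizontal axis) with its standard error (bars) of each of the 10 receptor genes in the 3 comparisons, surface receptors above and endosomal receptors below, with the fold-change limit of 1.5 as broken lines. Filled points mark called genes: Tlr2 at -0.63 in DCM compared to CK, then Tlr1, Tlr2, Tlr7 and Tlr13 between 0.71 and 1.25 in SPM compared to DCM, and Tlr7 and Tlr13 at 0.94 and 1.35 in SPM compared to CK.

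As levels per length, the deposited FPKM values put Tlr4, the lipopolysaccharide receptor, first of the family. Its mean was 5.13 ± 1.08 FPKM (SD, n = 9 libraries of all groups), followed by Tlr2 at 2.67 ± 0.722, Tlr3 at 1.73 ± 0.246, Tlr7 at 1.53 ± 0.628 and Tlr13 at 0.966 ± 0.600. Tlr9 at 0.80 ± 0.223, Tlr8 at 0.573 ± 0.165, Tlr1 at 0.542 ± 0.205, Tlr5 at 0.512 ± 0.125 and Tlr6 at 0.279 ± 0.0731 followed. The ranges of neighbours in this order overlapped at each of its 9 steps, although Tlr2 exceeded Tlr3, and Tlr7 exceeded Tlr13, in 9 of 9 libraries. Tlr13 exceeded Tlr9 in 4 of 9. Tlr4 stood at the 70.6th percentile of all 22851 genes by mean FPKM and Tlr6 at the 40.7th. Counts per library ran from 20 for Tlr6 in the second DCM library to 968 for Tlr4 in the first SPM library, so counting error alone was larger for the genes low in this order. Of the family's other mouse genes, Tlr11 had between 2 and 13 counts per library and Tlr12 between 0 and 13.

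**Figure D2:**
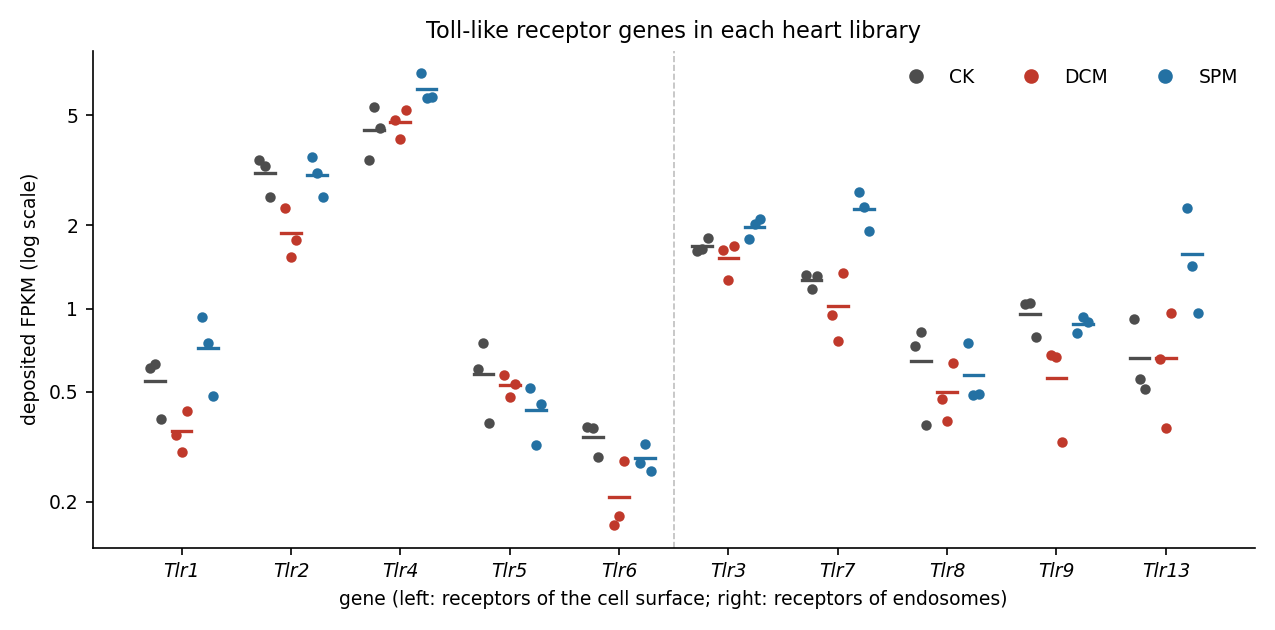
Deposited FPKM on a log axis of each receptor gene in each of the 9 libraries, with the mean of the 3 libraries of a group as a line. Points of a group stand in replicate order. Tlr4 lies highest, between 3.45 and 7.10 FPKM, and the 3 SPM libraries of Tlr7, between 1.91 and 2.63 FPKM, lie above all 6 others, the highest of which is 1.34 FPKM.

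By means of 3 libraries, the first ranks were Tlr4, Tlr2, Tlr3, Tlr7, Tlr9 and Tlr13 in CK. In DCM Tlr13 stood before Tlr9, at 0.6645 and 0.559 FPKM, and the rest of these kept their places. In SPM Tlr13 also stood before Tlr9, and Tlr7 before Tlr3, although Tlr3 exceeded Tlr7 in the third SPM library, at 2.11 and 1.91 FPKM. The 10 genes summed to 14.2 ± 1.38 FPKM in CK, 11.95 ± 1.67 in DCM and 18.01 ± 2.42 in SPM (SD, n = 3). Tlr2 made up 19.7% to 24.5% of that sum in CK and 13.4% to 18.4% in DCM, and these ranges did not overlap. In SPM its share was 15.9% to 17.7%, below CK and inside the DCM range. Tlr7 made up 7.53% to 10.2% of it in CK, 7.54% to 10.2% in DCM, and from 12.0% to 13.3% in SPM. The SPM range of Tlr7 thus lay above both others.

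Tlr2, which forms lipoprotein receptors with Tlr1 or Tlr6, was the one member called in DCM compared to CK. Its level was 9.91, 9.34 and 7.43 normalized CPM in the 3 CK libraries, 6.96, 4.77 and 5.45 in DCM and 10.96, 9.55 and 7.81 in SPM. All DCM libraries lay below all CK and all SPM libraries, while CK and SPM overlapped. The log2 fold change was -0.63 ± 0.18 (SE) in DCM compared to CK (adjusted p = 0.0391), 0.71 ± 0.17 in SPM compared to DCM (adjusted p = 0.0238) and 0.08 ± 0.16 in SPM compared to CK (adjusted p = 0.729). The rise over DCM was 0.71 ± 0.21 without the second SPM library (adjusted p = 0.0874) and was no longer called. The DCM difference was not called either when the first or second CK library or either of DCM replicates 2 and 3 was left out, with log2 fold changes between -0.79 and -0.52 over the 6 left-out libraries. In these bulk samples, fewer cells of a type and less RNA per cell cannot be told apart.

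Tlr1, the partner of Tlr2 for triacylated lipoproteins, was at 1.75, 1.81 and 1.17 normalized CPM in CK, 1.06, 0.948 and 1.32 in DCM and 2.89, 2.32 and 1.497 in SPM. The SPM libraries lay above the DCM libraries, the lowest of SPM by less than the spread within either group. It was upregulated in SPM compared to DCM by a log2 fold change of 1.01 ± 0.30 (adjusted p = 0.0459), which was 0.99 ± 0.39 without the second SPM library (adjusted p = 0.166). Its other log2 fold changes were -0.51 ± 0.34 in DCM compared to CK (adjusted p = 0.396) and 0.49 ± 0.31 in SPM compared to CK (adjusted p = 0.262). Tlr6, the partner of Tlr2 for diacylated lipoproteins, was at 1.04 to 1.31 CPM in CK, 0.603 to 1.05 in DCM, and from 0.976 to 1.22 in SPM. All groups overlapped and none of its comparisons was called, with log2 fold changes of -0.64 ± 0.38, 0.47 ± 0.34 and -0.17 ± 0.28 in DCM compared to CK, SPM compared to DCM and SPM compared to CK.

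Tlr4, which signals with the coreceptors Cd14 and Ly96, was at 13.4, 20.8 and 17.7 normalized CPM in CK, 19.6, 17.3 and 21.9 in DCM and 29.8, 24.2 and 24.2 in SPM. CK and DCM overlapped, and all SPM libraries lay above both. Its log2 fold change was 0.18 ± 0.15 in DCM compared to CK (adjusted p = 0.50) and 0.41 ± 0.11 in SPM compared to DCM (adjusted p = 0.0340), which passed the adjusted p, as did 8.87% of all genes in the same direction, but not the fold limit. Over the 6 left-out libraries its adjusted p ran from 0.0232 to 0.123, and it was 0.0830 without the second SPM library. Compared to CK, the SPM value was 0.58 ± 0.16 (adjusted p = 0.0256), a fold change just under the limit of 1.5. By the adjusted p alone, Tlr4 passed there beside 13.0% of all genes in the same direction. Under 8 of 15 alternatives it was called there, and 1 of these 8 is the same fit by the adjusted p alone. After GC correction it was at 0.29 there (adjusted p = 0.111) and was not called. Its adjusted p ran from 0.0219 to 0.0656 over the left-out libraries of this comparison and was 0.0542 without the second SPM library. Tlr5, the flagellin receptor, was the one receptor with a lower mean in SPM than in DCM. It was at 1.43 to 2.71 CPM in CK, 1.896 to 2.19 in DCM, and from 1.25 to 2.03 in SPM, with overlap throughout. Its log2 fold change in SPM compared to DCM was -0.29 ± 0.25 (adjusted p = 0.446).

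Tlr7, an endosomal receptor for single-stranded RNA, was called in both comparisons of SPM. It was at 4.91, 4.35 and 4.96 normalized CPM in CK, 3.69, 3.08 and 5.36 in DCM and 10.6, 9.26 and 7.61 in SPM. CK and DCM overlapped, and every SPM library lay above every other library. The log2 fold change was -0.22 ± 0.22 in DCM compared to CK (adjusted p = 0.578), 1.17 ± 0.20 in SPM compared to DCM (adjusted p = 0.0111) and 0.94 ± 0.15 in SPM compared to CK (adjusted p = 0.00335). The last 2 values without the second SPM library were 1.17 ± 0.24 (adjusted p = 0.0520) and 0.94 ± 0.19 (adjusted p = 0.0204), so the second of these calls remained. Without the second DCM library the log2 fold change in SPM compared to DCM was 1.02 ± 0.21 (adjusted p = 0.0571).

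Tlr13, an endosomal receptor for bacterial ribosomal RNA, had the largest fitted fold changes of the 10 in both comparisons of SPM and also a wide spread. It was at 3.54, 2.15 and 2.01 normalized CPM in CK, 2.66, 1.56 and 4.01 in DCM and 9.69, 5.95 and 4.003 in SPM. The lowest SPM library and the highest DCM library were level, so these groups overlapped, while all SPM libraries lay above all CK libraries. The log2 fold change was 0.11 ± 0.34 in DCM compared to CK (adjusted p = 0.895), 1.25 ± 0.36 in SPM compared to DCM (adjusted p = 0.0403) and 1.35 ± 0.34 in SPM compared to CK (adjusted p = 0.0208). Leaving out the second SPM library gave 1.32 ± 0.38 (adjusted p = 0.0873) against DCM and 1.42 ± 0.39 (adjusted p = 0.0514) against CK, and neither was called.

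Tlr3, the receptor for double-stranded RNA, was at 6.79, 6.86 and 7.69 normalized CPM in CK, 7.14, 5.79 and 7.59 in DCM and 8.09, 9.10 and 9.53 in SPM. The SPM libraries lay above all others, but the log2 fold changes of 0.38 ± 0.14 against DCM (adjusted p = 0.0777) and 0.32 ± 0.12 against CK (adjusted p = 0.0719) were not called. Tlr9, the receptor for unmethylated CpG DNA, was at 3.44, 3.46 and 2.66 CPM in CK, 2.36, 2.40 and 1.17 in DCM and 2.92, 3.31 and 3.19 in SPM. All DCM libraries lay below all CK and all SPM libraries, and the log2 fold changes of -0.69 ± 0.29 (adjusted p = 0.169) and 0.67 ± 0.27 (adjusted p = 0.114) were not called. Tlr8, which lies next to Tlr7 on the X chromosome, was at 1.26 to 2.68 CPM in CK, 1.39 to 2.23 in DCM, and from 1.70 to 2.65 in SPM, which overlapped, and its log2 fold changes lay between -0.28 and 0.22.

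Over the 10 genes, 8 had a lower fitted level in DCM than in CK, with a median log2 fold change of -0.25 against -0.002 over all genes tested. Of these, 2 had groups that did not overlap, Tlr2 and Tlr9, beside 14.8% of all genes with DCM libraries all lower. Compared to DCM, 9 were higher in SPM, with a median of 0.57 against 0.006 over all genes tested, and 6 did not overlap (Tlr1, Tlr2, Tlr3, Tlr4, Tlr7 and Tlr9), beside 19.7% of all genes with SPM libraries all higher. Compared to CK, 6 were higher in SPM, with a median of 0.20 against 0.002, and 4 did not overlap (Tlr3, Tlr4, Tlr7 and Tlr13), beside 23.3% of all genes in that direction. The median in SPM compared to DCM was 0.55 without the second SPM library.

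Receptor genes differed in GC content, from 39.4% in the Tlr4 transcript to 56.2% in that of Tlr9. Genes within 2 percentage points of Tlr4, Tlr3, Tlr8 and Tlr7 had median log2 fold changes between 0.29 and 0.33 in SPM compared to DCM, and those near Tlr9 had -0.16. After a GC correction fitted over all genes, Tlr4 moved from 0.41 to 0.10 and Tlr3 from 0.38 to 0.08, while Tlr9 moved from 0.67 to 0.85. Tlr7 was still called at 0.91 (adjusted p = 0.0397), as 1 of 10 beside 0.676% of all genes called higher. Tlr2 stayed at 0.73 (adjusted p = 0.0537), Tlr1 at 0.89 (adjusted p = 0.112) and Tlr13 at 1.08 (adjusted p = 0.107), and none of these was called. The corrected values in SPM compared to CK of Tlr7 and Tlr13 were 0.68 (adjusted p = 0.0183) and 1.18 (adjusted p = 0.0444). Both were called, beside 4.12% of all genes called higher. Against CK, Tlr4 moved from 0.58 to 0.29 (adjusted p = 0.111) and Tlr3 from 0.32 to 0.03 (adjusted p = 0.881). The correction was fitted to all 6 libraries at once, and the origin of the GC trend was not tested.

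**Figure D3:**
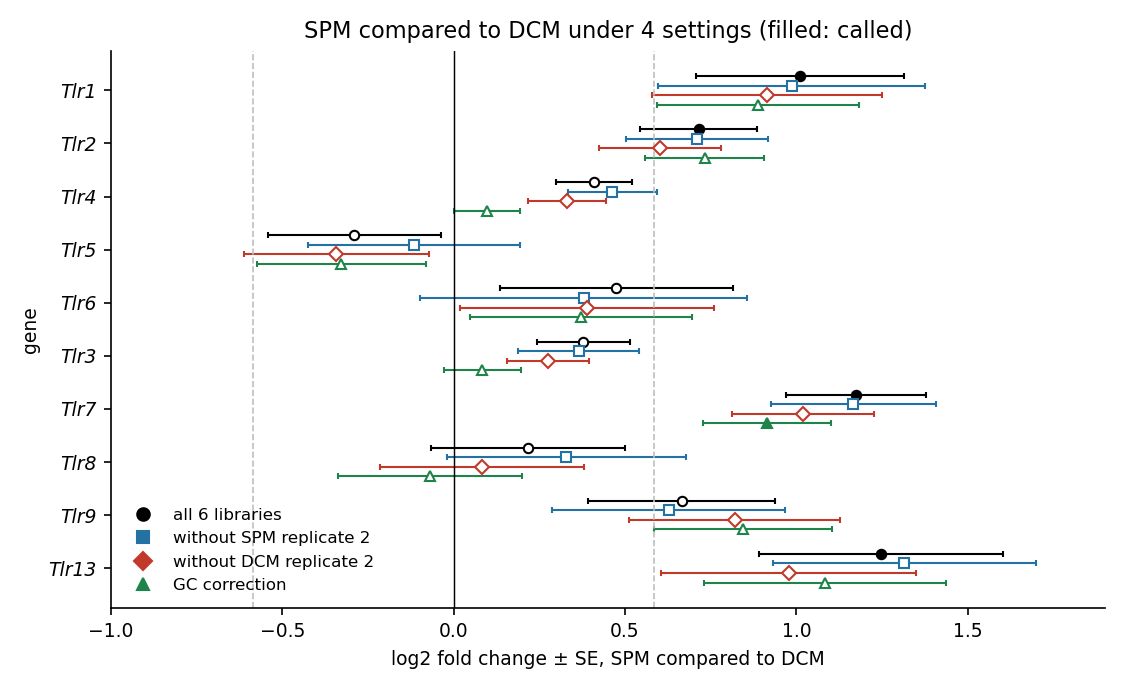
Log2 fold change with standard error (horizontal axis) of each receptor gene in SPM compared to DCM, with all 6 libraries, without the second SPM or the second DCM library, and after GC correction. Filled points are called, 4 of 10 with all libraries, 0 without either library and Tlr7 alone after GC correction, and point estimates of Tlr1, Tlr2, Tlr7 and Tlr13 stay between 0.60 and 1.32.

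Where the promoter is concerned, RefSeq windows of 300 bases (GRCm38.p6, from 250 bases before to 50 after the start) were found for 8 members and not for Tlr4 and Tlr7. The bases upstream of the annotated gene are shown for 3 of the members called in SPM compared to DCM, since all 3 were called in that direction, 5′ to 3′ on the strand of the gene and in capitals where the core GAGGAAG bound by PU.1 and other ETS factors of myeloid cells occurs on either strand.
Tlr13, chrX:106143025-106143203, plus strand: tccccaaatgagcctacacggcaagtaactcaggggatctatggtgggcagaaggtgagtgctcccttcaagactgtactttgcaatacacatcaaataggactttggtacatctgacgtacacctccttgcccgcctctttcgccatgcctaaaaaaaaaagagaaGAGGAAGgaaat
Tlr2, chr3:83841768-83841858, minus strand: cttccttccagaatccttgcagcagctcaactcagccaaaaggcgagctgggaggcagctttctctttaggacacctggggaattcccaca
Tlr1, chr5:64933564-64933808, minus strand: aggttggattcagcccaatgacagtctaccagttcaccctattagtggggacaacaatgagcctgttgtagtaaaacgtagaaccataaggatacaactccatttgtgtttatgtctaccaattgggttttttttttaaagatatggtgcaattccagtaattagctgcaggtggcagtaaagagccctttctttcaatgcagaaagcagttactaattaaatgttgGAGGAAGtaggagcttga
This core was in the windows of Tlr1, Tlr9 and Tlr13, 3 of the 8 members, and in 13.6% of 32851 windows of all genes. The 8 members had 10 windows, and a member was counted for a match in any of its windows. The shares of all genes are per window, so the 2 kinds of count are not alike. The C/EBP letters TTGCNNAA were in 4 of the 8 (Tlr3, Tlr6, Tlr8 and Tlr13) and in 10.8% of all windows. An NF-kappaB pattern (GGG, 2 bases of any kind, TTTCC) was in that of Tlr3 alone and in 1.63% of all windows, and the ISRE pattern of interferon regulatory factors (GAAA, 2 bases of any kind, GAAA) was in one of Tlr6 alone and in 3.44%. The windows of Tlr3 and Tlr6 with these matches lay inside the annotated genes, and the C/EBP letters of Tlr13 lay past its annotated start. Upstream of the annotated genes, the C/EBP letters remained in Tlr8 alone and the NF-kappaB and ISRE patterns in no member. Both strands were searched for each, with these letters only, so other forms of such sites were not looked for. These matches are descriptions of letters and not of binding.

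Markers of leukocytes and of other heart cells were read in the same libraries. The 14 macrophage markers together reached 510 to 670 CPM in the CK libraries, 455 to 521 CPM in the DCM libraries and 548 to 850 CPM in the SPM libraries, with none of the 14 at 0 in any library. Of the 14, 7 were upregulated in SPM compared to DCM, among them Adgre1 and the complement genes C1qa, C1qb and C1qc. The SPM and DCM libraries of these C1q genes overlapped. Beside these and the later marker counts of this comparison, 2.7% of all genes were called higher. Without the second SPM library 1 of the 14 was called there, beside 0.283% of all genes. Without the second DCM library 2 were, beside 49 of 14988 genes called higher. After GC correction 4 of the 14 were, beside 0.676% of all genes. In DCM compared to CK 3 were downregulated (Adgre1, Fcgr1 and Cx3cr1) and 1, Lyve1, was upregulated, beside 2.31% and 2.03% of all genes. The 4 monocyte markers reached 5.45 to 9.73 CPM in CK libraries, 3.05 to 7.86 CPM with diabetes alone and 19.7 to 21.0 CPM with spermine, and 3 of them were upregulated in SPM compared to DCM (1 without the second SPM library). For the 10 neutrophil markers these sums were 5.68 to 25.9, 13.0 to 29.2 and 31.8 to 64.5 CPM, and 6 of the 7 tested were upregulated in SPM compared to DCM (1 without that library). One gene, Ltf, carried the upper end in CK, with 16.9 CPM in 1 CK library and at most 0.223 in the other 2. The 5 B cell markers, which mark a cell type known to carry Tlr9, reached 6.52 to 21.5, 2.44 to 10.9 and 3.26 to 6.80 CPM in the same order, and in DCM compared to CK 0 of 5 were called by edgeR, 2 by DESeq2 and 0 by limma, with 3 lower at an unadjusted p below 0.05. In SPM compared to DCM 4 of these 5 were lower, with a median of -0.17. In SPM compared to CK Cd79b and Pax5 were downregulated, beside 4.12% of all genes called lower. Tlr9 had log2 fold changes of 0.67 and -0.03 in these comparisons, in the same order. The 7 dendritic cell markers summed to 36.6 to 42.55, 31.5 to 38.3 and 26.0 to 31.5 CPM in CK, DCM and SPM. Most of that was Zbtb46, with means of 33.9, 29.1 and 24.25 CPM, so the sum mainly follows 1 gene. The next highest of the list, Clec9a, had means of 2.12, 3.34 and 3.49 CPM. Which cells carried Zbtb46 was not tested, and the sum is not a reading of dendritic cells. The 7 T and NK cell markers summed to 5.87 to 9.15, 1.997 to 4.32 and 4.36 to 5.11 CPM. In SPM compared to DCM the medians of these lists were -0.26 and 0.47, and edgeR called no gene of either. Compared to CK, Xcr1 and Lck were downregulated and Clec9a upregulated in SPM, none of them without the second SPM library. In that comparison 7 of 8 neutrophil markers tested were upregulated (6 without that library, 7 after GC correction). Ltf was lower there and not called. Of the 4 monocyte markers 3 were upregulated (1 and 2 in those settings). Of the 14 macrophage markers, Cd163 and Lyve1 were upregulated in each setting, and Cx3cr1 was downregulated except without that library. Of all genes, 5.08% were called higher (2.9% and 4.12% in those settings). The medians of the 7 endothelial, 5 fibroblast and 5 cardiomyocyte markers in SPM compared to DCM were -0.07, 0.20 and -0.17. The share of mitochondrial transcripts was 13.7% to 18.9% over the CK and DCM libraries and 21.0% to 21.1% over the SPM libraries. The part of these shifts in the receptor changes was not tested.

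Set against the summed macrophage markers in the same library, the 10 members were compared again by whether the groups overlapped. Tlr2 was at 14.6 to 15.3 CPM per 1000 CPM of macrophage markers in CK, 10.48 to 13.4 in DCM, and from 12.9 to 14.2 in SPM, so that SPM and DCM overlapped on this scale while both lay below CK. Tlr7 was at 7.11 to 9.74 in CK, 6.77 to 11.6 in DCM, and from 12.4 to 13.9 in SPM, and its SPM range lay above both others. Tlr13 was at 3.51 to 5.28 in CK, 3.42 to 8.65 in DCM, and from 7.30 to 11.4 in SPM, above CK and overlapping DCM. Tlr4 was at 19.98 to 34.8 in CK, 37.6 to 47.2 in DCM, and from 35.0 to 44.2 in SPM, so that both diabetic groups lay above CK. Tlr5 was at 4.16 to 4.48 in DCM and 1.81 to 3.20 in SPM, lower in SPM without overlap. Tlr6 was at 1.95 to 2.10 in CK and 1.23 to 1.78 in SPM, lower in SPM without overlap. Tlr1, Tlr3, Tlr8 and Tlr9 overlapped in all 3 comparisons. These ratios carry no test, and the markers are a list of macrophage genes and not a count of cells.

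**Figure D4:**
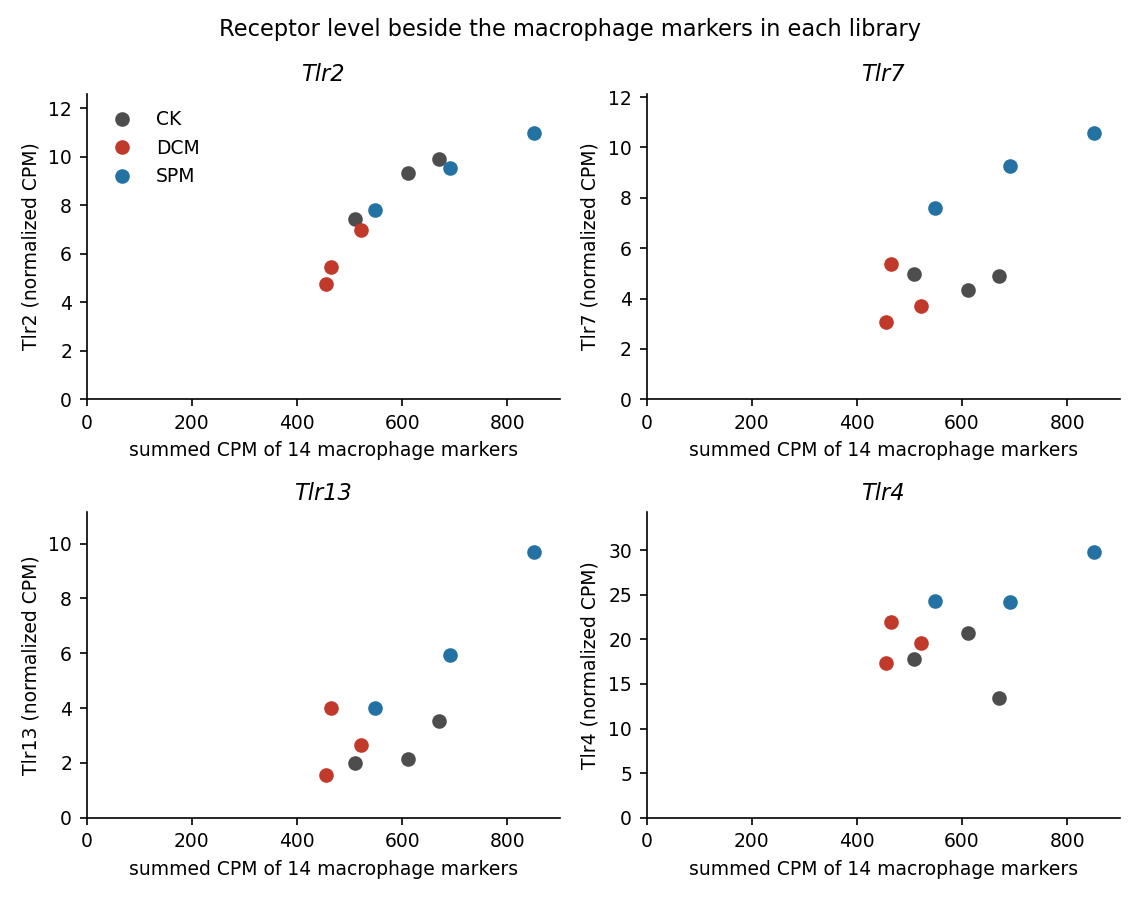
Normalized CPM of Tlr2, Tlr7, Tlr13 and Tlr4 (vertical axes) against the summed CPM of 14 macrophage markers (horizontal axes), 1 point per library, all axes from 0. Tlr2 rises broadly with the markers over the 9 libraries, with DCM and SPM lower than CK per CPM of markers. Tlr7 in the 3 SPM libraries lies at 7.61 CPM or more while no other library passes 5.36. Tlr4 in DCM lies at 17.3 to 21.9 CPM at marker sums of 455 to 521.

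Neighbouring genes were set against each other by their FPKM ratio, with no test. The ratio of Tlr7 to Tlr8, which are 40599 bases apart, was between 1.43 and 3.45 in CK, 1.95 and 2.12 in DCM and 3.51 and 4.78 in SPM, with SPM above all others. The ratio of Tlr1 to Tlr6, which are 18467 bases apart, was between 1.37 and 1.72 in CK, 1.52 and 2.13 in DCM and 1.86 and 3.36 in SPM, with overlap between DCM and SPM.

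The pathway around the receptors was followed in lists of 77 genes by role, of which 73 were measured and the other 4 not analysed here. In DCM compared to CK 3 of 65 tested were upregulated and 4 downregulated, or 10.8%, beside 4.34% of all genes, with a median log2 fold change of -0.12. Compared to DCM, 7 of 65 were upregulated and 0 downregulated in SPM by edgeR, with 5 lower at an unadjusted p below 0.05 and none called lower by DESeq2 or limma. These counts stand beside 2.7% and 0.89% of all genes, with a median of 0.18. Without the second SPM library 2 were upregulated, Hsp90b1 and Saa3, and without the second DCM library 1, Hsp90b1. In these settings 42 of 14828 and 49 of 14988 genes tested were called higher. Compared to CK, 7 of 68 were upregulated and 1 downregulated in SPM, together 11.8%, beside 5.08% of all genes called higher and 4.12% called lower. Without the second SPM library 8 were also called, beside 432 of 14897 genes called higher and 339 called lower.

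Among the 6 coreceptors, 1 was called in DCM compared to CK, beside 4.34% of all genes, and none in the other comparisons. Ly86, which with Cd180 restrains Tlr4, was at 9.74 ± 1.99 CPM in CK, 4.18 ± 1.10 in DCM and 7.04 ± 1.97 in SPM (SD, n = 3). It was downregulated in DCM compared to CK with a log2 fold change of -1.21 ± 0.21 (adjusted p = 0.00351).

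Of the 9 measured genes for folding and endosomal delivery, 3 were called in at least 1 comparison. By comparison these were 2 in DCM compared to CK, 2 in SPM compared to DCM and 1 in SPM compared to CK. The shares of all genes called there were 4.34%, 3.59% and 9.21%. Unc93b1, which carries the nucleic acid receptors to endosomes, was at 60.8 ± 11.2 CPM in CK, 38.8 ± 3.07 in DCM and 45.6 ± 5.39 in SPM, and was downregulated in DCM compared to CK (log2 fold change -0.65 ± 0.12, adjusted p = 0.00439). Ctss, a protease that trims endosomal receptors, was at 37.9 ± 3.39, 22.3 ± 3.71 and 39.4 ± 11.2 CPM in the same order. It fell by 0.76 ± 0.12 on the log2 scale in DCM compared to CK (adjusted p = 0.00139) and was higher by 0.82 ± 0.19 in SPM compared to DCM (adjusted p = 0.0204; 0.0629 without the second SPM library). Hsp90b1, the chaperone that folds most Toll-like receptors, was at 62.3 ± 10.2 CPM in CK, 59.4 ± 10.8 in DCM and 102 ± 0.710 in SPM. It was upregulated in SPM compared to DCM by 0.78 ± 0.11 (adjusted p = 0.00813), and by 0.78 ± 0.13 without the second SPM library (adjusted p = 0.0286). After GC correction neither Ctss nor Hsp90b1 was called in SPM compared to DCM.

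No gene was called by edgeR among the 4 measured adaptors or the 8 measured transcription factors. In DCM compared to CK 2 of each list were lower at an unadjusted p below 0.05. DESeq2 called 1 adaptor and 0 transcription factors there, while limma called 1 of each. In SPM compared to CK 7 of the 8 transcription factors were lower, with a median of -0.19 (-0.10 after GC correction). Of these, 4 had SPM libraries all below CK, beside 3356 of 14574 genes tested. Nfkb2 at -0.36 ± 0.07 (adjusted p = 0.00786) and Nfkb1 at -0.20 ± 0.06 (adjusted p = 0.0438) passed the adjusted p there but not the fold limit. The most abundant per length were Ticam1, the adaptor of Tlr3 and Tlr4, with log2 fold changes between -0.19 and -0.06, and Rela, a subunit of NF-kappaB, with values between -0.21 and 0.04. After GC correction 1 adaptor, Ticam2, which links Tlr4 to Ticam1, was called lower in DCM compared to CK, where its uncorrected log2 fold change was -2.25 ± 0.68 (adjusted p = 0.0535). Of the 16 kinases and ubiquitin ligases 1 was called, Ikbke, a kinase upstream of interferon regulatory factors, at 2.11 ± 0.466 CPM in CK, 2.55 ± 1.02 in DCM and 5.32 ± 1.61 in SPM. Its log2 fold change was 1.05 ± 0.30 in SPM compared to DCM (adjusted p = 0.0417; 0.126 without the second SPM library) and 1.33 ± 0.27 in SPM compared to CK (adjusted p = 0.00907; 0.0414 without that library). In these comparisons 3.59% and 9.21% of all genes were called, beside 6.25% of this list in each. After GC correction Ikbke was called in SPM compared to CK and not in SPM compared to DCM. Of the 8 inhibitors, Nfkbia, the inhibitor and target of NF-kappaB, was upregulated in DCM compared to CK by 0.60 ± 0.11 (adjusted p = 0.00502) and in SPM compared to CK by 0.64 ± 0.12 (adjusted p = 0.00590; 0.0219 without the second SPM library). Of all genes, 2.03% and 5.08% were called higher in these comparisons. Without the second DCM library Nfkbia was not called in DCM compared to CK.

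Of the 15 measured target genes, 8 passed the low-count filter in the 2 comparisons with DCM. Cxcl9, an interferon-induced chemokine, was at 12.5 ± 4.44 CPM in CK, 3.81 ± 0.664 in DCM and 5.16 ± 0.359 in SPM, and was downregulated in DCM compared to CK by a log2 fold change of -1.71 ± 0.23 (adjusted p = 6.545e-04) and in SPM compared to CK by -1.28 ± 0.23 (adjusted p = 0.00573; 0.0271 without the second SPM library). The cytokine genes Tnf and Il6 stayed under 1 CPM in the mean of every group. Among the 7 endogenous ligands, S100a8 and S100a9, the subunits of calprotectin, were upregulated in all 3 comparisons, with log2 fold changes of 1.20 and 1.74 in DCM compared to CK, 1.67 and 1.36 in SPM compared to DCM and 2.86 and 3.09 in SPM compared to CK. The SPM and DCM libraries of S100a9 overlapped. Without the second SPM library both remained called against CK and neither against DCM (adjusted p = 0.0520 and 0.0784). After GC correction S100a8 was still called in SPM compared to DCM and S100a9 was not. Without the second DCM library S100a9 was still called in DCM compared to CK and S100a8 was not, and neither was called in SPM compared to DCM. Both also stand in the neutrophil list. Saa3, an acute-phase ligand of Tlr2 and Tlr4, was at 0.130 to 0.781 CPM in CK, 0.0339 to 0.377 in DCM, and from 1.82 to 10.4 in SPM, with a log2 fold change of 4.64 ± 0.68 in SPM compared to DCM (adjusted p = 0.00934). Hmgb1, a nuclear protein that acts as a ligand once released, was upregulated in SPM compared to DCM by 0.64 ± 0.13 (adjusted p = 0.0161) and was not called after GC correction. Without the second SPM library 1 of the 7 ligands, Saa3, was called in SPM compared to DCM, beside 0.283% of all genes called higher.

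**Figure D5:**
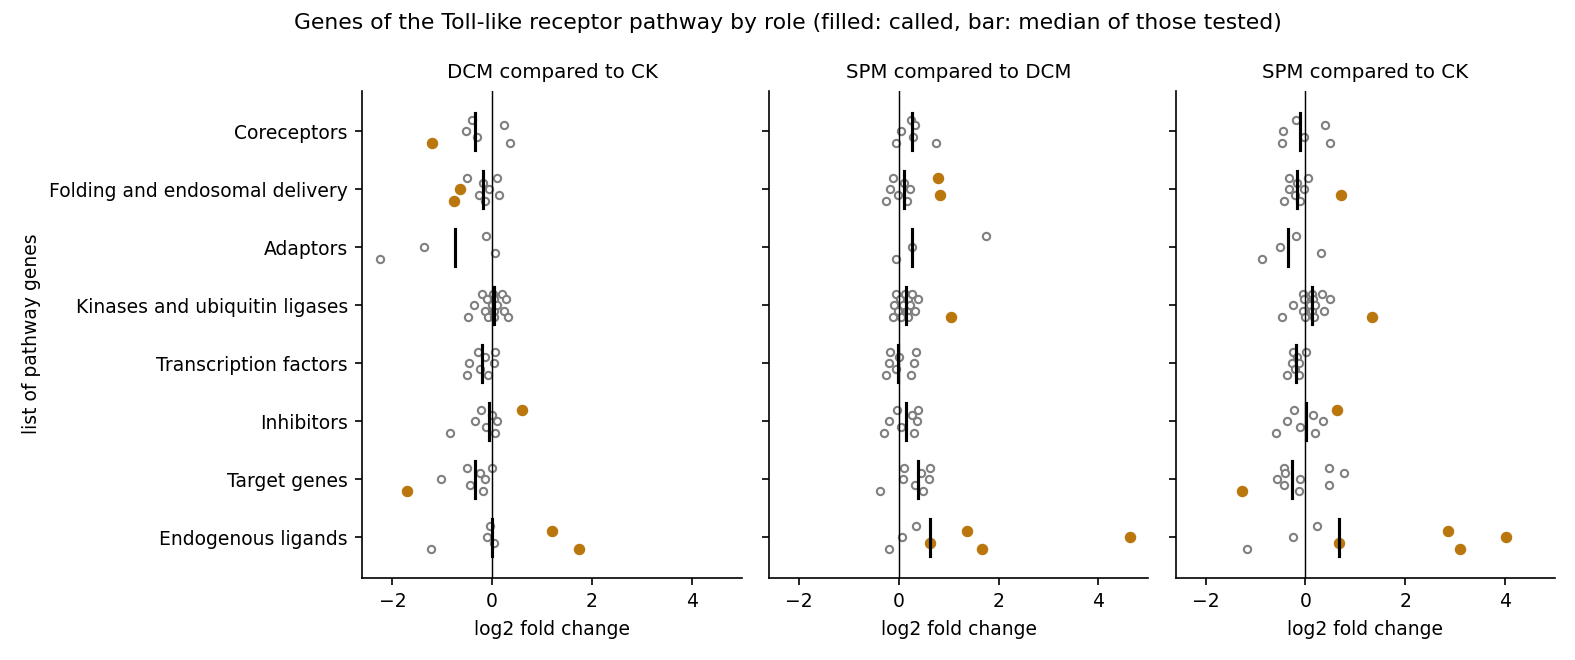
Log2 fold change of the tested pathway genes by role (rows) in the 3 comparisons, 1 point per gene, with the median of each row as a bar and called genes filled. In DCM compared to CK the filled points are 4 on the left and 3 on the right, and in SPM compared to DCM all 7 lie on the right, 4 of them endogenous ligands with Saa3 at 4.64.

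For each called receptor the 3 genes with the most similar course over the 9 libraries were sought among 12609 genes with a mean of at least 1 CPM, by the root mean square difference of centred log2 CPM. Nearest to Tlr2 were Rac2, Mpeg1 and Cybb at 0.0910, 0.0991 and 0.10, where Tlr2 itself varied by 0.379. Nearest to Tlr1 were Cd33, Ms4a6b and Clec4a1 at 0.150 to 0.184, with a variation of Tlr1 of 0.483. Nearest to Tlr7 were Cmc4, Mir99ahg and Tfrc at 0.145 to 0.198, with 0.558 for Tlr7, and nearest to Tlr13 were Cmc4, Pirb and Ikbke at 0.277 to 0.313, with 0.765 for Tlr13. All 9 libraries of each pair are the same, so these distances share depth and composition and carry no test.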

How the data were processed

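RNA from heart was sequenced in 9 libraries, grouped by their labels. Per the study's methods, reads were filtered with fastp 0.18.0. The submitters' processing notes name Bowtie 0.12.2, mm8 and mm9 with no role, and no source used here gives the counting tool or annotation. The authors deposited whole-number counts per gene and library. They also deposited FPKM values, which equal count over length and library total within a relative deviation of 8.58e-13, with the length of the longest GENCODE M21 transcript for all 10 members. Gene symbols and positions come from GENCODE M21 (22844 of 22851 identifiers found).

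Groups were compared in pairs with the quasi-likelihood test of edgeR 4.0.16 (R 4.3.3) after filterByExpr and TMM, on 6 libraries each. Calls needed a Benjamini-Hochberg adjusted p below 0.05 over all genes tested and a fold change of at least 1.5, as in the study's methods, which used DESeq2. Normalized CPM are counts over TMM-scaled totals. The SE is the log2 fold change over the square root of F. The GC correction was a lowess offset (span 0.3) of log2 CPM on transcript GC content. All 10 members passed the filters. The steps were tested on simulated counts with 200 changed genes. Of changes of 2-fold or more 95.2% to 98% were called, and of 1.5-fold changes 38% to 46%. The simulation used 1 dispersion for all genes, independent libraries and no GC trend. Alternatives were other filters, RLE normalization, DESeq2 1.42.0, limma 3.58.1 on log2(FPKM + 0.1), a joint fit, a replicate block and each library left out. The GC correction and the main fit without the fold limit were the others. The numbers did not pair the libraries (correlations of residuals of equal numbers between -0.0746 and 0.205).

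Named were all 10 members, Tlr11 and Tlr12 as counts, each pathway gene called in at least 1 comparison, the most abundant gene of a list with none, and the 3 nearest genes of each called member. Ticam2, Nfkb1, Nfkb2, Tnf, Il6 and marker genes were named as background or chosen after their values were seen. The members and lists were chosen with earlier results of these data known.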

Additional observations from a re-analysis of the deposited data

How the results depend on the processing

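Counts with 3 libraries per group limit the precision, and leaving out 1 library of a comparison changed most calls of the receptors. Called receptors numbered 0 to 1 in DCM compared to CK (0 without CK replicates 1 or 2 or DCM replicates 2 or 3), 0 to 4 in SPM compared to DCM (0 without SPM replicate 2 or DCM replicate 2, and 2 without DCM replicates 1 or 3 or SPM replicate 1) and 1 to 3 in SPM compared to CK (1 without CK replicate 3 or SPM replicate 2) over the left-out libraries. Called pathway genes in SPM compared to DCM numbered 1 to 8, and all called genes 56 to 791 there (56 without SPM replicate 2 and 73 without DCM replicate 2) and 771 to 1589 in SPM compared to CK. In SPM compared to DCM the GC correction left 1 receptor, 2 pathway genes and 126 genes in all, and limma on FPKM left 2 receptors. With the adjusted p alone, 11, 13 and 24 pathway genes and 1497, 2410 and 3989 genes in all passed in DCM compared to CK, SPM compared to DCM and SPM compared to CK. Limma on FPKM called 232 higher and 461 lower in DCM compared to CK, beside 292 and 333 by edgeR, and 578 higher and 903 lower in SPM compared to CK, beside 741 and 601. The cause was not tested.

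Signs turned for values near 0. Over left-out libraries the log2 fold change ran from -0.13 to 0.050 for Tlr3, -0.25 to 0.18 for Tlr5 and -0.26 to 0.41 for Tlr13 in DCM compared to CK, from -0.030 to 0.42 for Tlr8 in SPM compared to DCM, and from -0.040 to 0.20 for Tlr2, -0.33 to 0.14 for Tlr8 and -0.15 to 0.035 for Tlr9 in SPM compared to CK. Limma gave -0.034 for Tlr13 in DCM compared to CK and -0.017 for Tlr2 in SPM compared to CK, and the GC correction gave -0.068 for Tlr8 in SPM compared to DCM and 0.13 for Tlr9 in SPM compared to CK. Of 150 alternative values of the 10 receptors per comparison, 138, 127 and 128 kept direction and call. Of the 15 alternatives behind these, 1 is the main fit without the fold limit, so its direction could not differ.

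The replicate numbers did not pair the libraries. With a replicate block, 1, 3 and 3 receptors were called in the 3 comparisons, and 568, 610 and 1282 genes in all.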
